A study of Mus musculus with 4 samples.

Results

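The pericyte markers described here are 10 genes: Vtn, Kcnj8, Abcc9, Rgs5, Rgs4, Pdgfrb, Cspg4, Notch3, Higd1b and Mcam. They were taken by gene symbol from the deposited table of 28723 genes, and all 10 symbols were found in it. RNA of whole mouse hearts was sequenced in 4 libraries, 2 from mice 8 weeks old (young) and 2 from mice 12 months old (aged). All mice were labelled C57BL/6J, wild type and without treatment, and their sex was not given in the labels. The titles of the aged libraries begin with FLOX and those of the young libraries with C, and the sources used here do not say whether the aged mice carried a floxed allele. Nothing in the labels ties the libraries to separate animals, and the p-values then describe only how these samples spread, which may be technical.

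Pericytes are mural cells embedded in the basement membrane of capillaries, where they share the matrix with endothelial cells. Endothelial cells recruit them by releasing PDGF-B, which binds the receptor encoded by Pdgfrb, and Notch signals between the cell types help mural cells mature. Kcnj8 and Abcc9 encode the pore and the regulatory subunit of the vascular ATP-sensitive potassium channel, which opens when cellular ATP falls and relaxes the vessel wall. None of the 10 genes is transcribed in pericytes alone. As examples and not a full list, Abcc9 is also expressed in cardiomyocytes, and Notch3, Pdgfrb and Mcam in smooth muscle. Pdgfrb and Cspg4 are also expressed in some fibroblasts or glia, and Mcam in endothelium. In RNA of whole tissue, fewer cells of a type and less RNA per cell cannot be told apart.

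At 12 months 7 of the 10 markers were lower than at 8 weeks: Vtn, Higd1b, Kcnj8, Rgs5, Rgs4, Pdgfrb and Notch3. The test was edgeR's quasi-likelihood test on the deposited counts, with Benjamini-Hochberg adjustment over 12027 genes with a mean of at least 1 FPKM (fragments per kilobase of transcript, scaled to the library's total), and a gene was called below an adjusted p of 0.05. Of all genes tested, 17.5% were called lower and 20.1% higher. No marker was called higher by edgeR, and none was higher at an unadjusted p below 0.05 either. DESeq2 on the same counts called 7 markers lower and 0 higher, where it called 19% of all tested genes lower and 21.5% higher. Abcc9, Cspg4 and Mcam were not called. The median log2 fold change of the 10 markers was -0.70, and that of all tested genes was 0.01. All 10 had a mean of at least 1 FPKM at both ages, so none entered the test through 1 age only. The FPKM of the ages did not overlap for the 7 markers called lower and overlapped for the other 3, while 72.5% of all tested genes did not overlap.

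**Figure D1:**
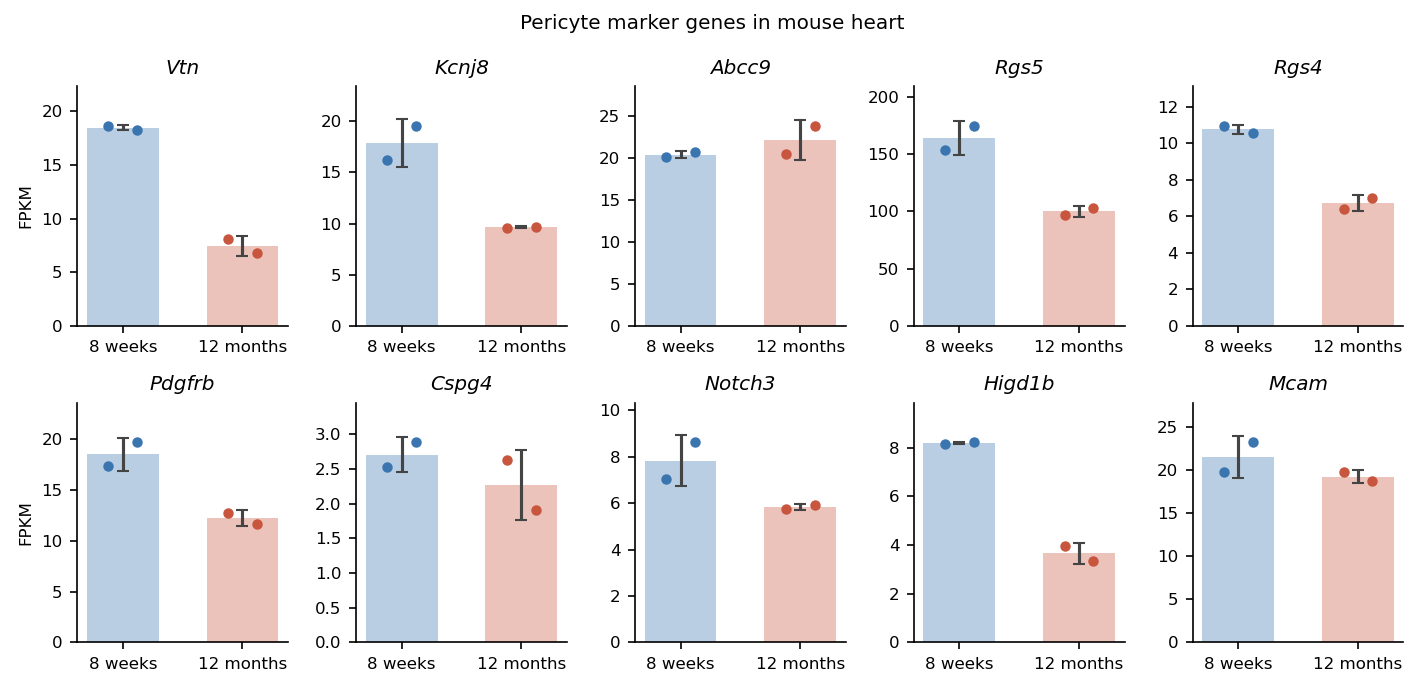
FPKM of the 10 pericyte markers in the 2 libraries at 8 weeks and the 2 at 12 months, with 1 panel per gene and its own axis from 0. Points are libraries, bars are means and error bars are SDs. Both aged libraries lie below both young libraries for 7 genes, while the ages overlap for Abcc9, Cspg4 and Mcam.

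**Figure D2:**
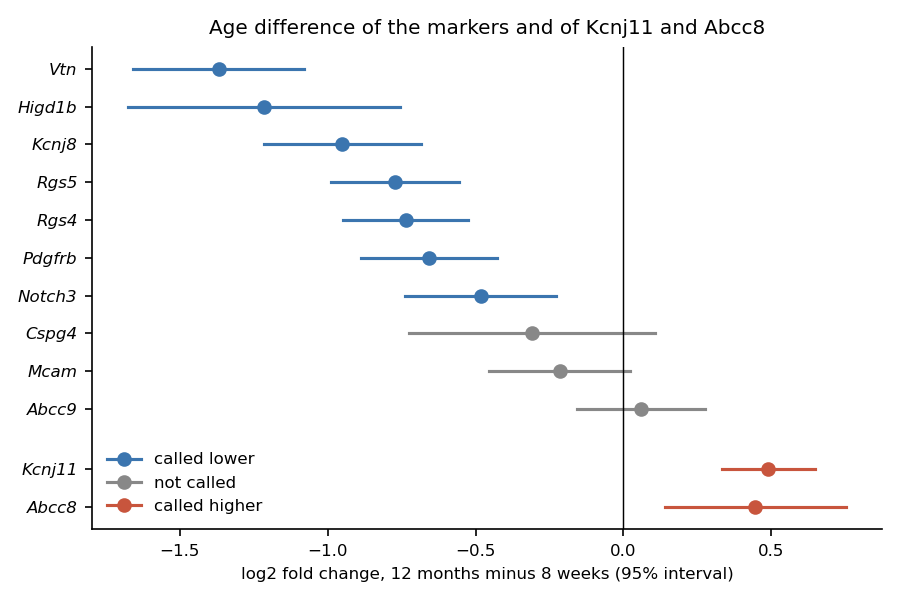
Log2 fold change at 12 months relative to 8 weeks for the 10 markers and for Kcnj11 and Abcc8, with 95% intervals from edgeR's quasi-likelihood fit. Blue marks genes called lower, red genes called higher and grey genes not called. Values run from -1.37 for Vtn to 0.49 for Kcnj11.

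The 4 libraries held 51328364 to 63828074 counts each, and 3 counts corresponded to 0.0470 to 0.0584 CPM, the count scaled to library size. The markers were measured from 158 counts, for Higd1b in aged replicate 2, to 55541 counts, for Rgs5 in young replicate 2. The FPKM of all genes summed to 549019 and 546455 in the young libraries and to 494057 and 496506 in the aged ones. Summed FPKM of gene lists are therefore not set against equal totals, and small differences between such sums may reflect this. Across the tested genes the young libraries correlated at 0.99 and the aged ones at 0.97. The number of all genes called lower was 2104 with all libraries, 890 without young replicate 1, 1048 without young replicate 2, 1924 without aged replicate 1 and 2144 without aged replicate 2.

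The order of the levels, compared per transcript length in FPKM, was led by Rgs5 at both ages. At 8 weeks Mcam and Abcc9 followed with overlapping ranges, then Pdgfrb, Vtn and Kcnj8, whose ranges also overlapped, then Rgs4, then Higd1b and Notch3 with overlapping ranges, and Cspg4 last. At 12 months the order was Rgs5, Abcc9, Mcam, Pdgfrb, Kcnj8, Vtn, Rgs4, Notch3, Higd1b and Cspg4, and of these neighbours Vtn and Rgs4 alone had overlapping ranges. Vtn thus stood beside Pdgfrb and Kcnj8 at 8 weeks and beside Rgs4 at 12 months. The summed FPKM of the 10 markers was 274 and 306 in the young libraries, against 186 and 192 in the aged ones. Rgs5 made up 55.9% and 57.0% of that sum at 8 weeks and 52.0% and 53.7% at 12 months. Without Rgs5 the sum was 121 and 132 FPKM in the young libraries, against 89.3 and 88.8 in the aged ones.

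Of the channel subunits, the pore gene Kcnj8 was called lower and the regulator gene Abcc9 was not called. Kcnj8 (ENSMUSG00000030247), which encodes the pore subunit Kir6.1, measured 16.2 and 19.5 FPKM in the young libraries, against 9.57 and 9.69 in the aged ones. Both aged libraries lay well below both young ones. The means were 17.9 ± 2.34 (SD, n = 2) and 9.63 ± 0.0868 FPKM (SD, n = 2), and Kcnj8 was 1.93-fold lower at 12 months (log2 fold change -0.95 ± 0.11 SE, edgeR adjusted p = 0.00226). Abcc9 (ENSMUSG00000030249), which encodes the sulfonylurea receptor SUR2 that surrounds this pore, measured 20.1 and 20.6 FPKM in the young libraries, against 20.4 and 23.8 in the aged ones. The lower aged library fell between the young ones and the other lay above both. Its log2 fold change was 0.06 ± 0.09 (SE) with a 95% interval from -0.16 to 0.28 (edgeR adjusted p = 0.63). Abcc9 kept no fixed direction, with a log2 fold change of -0.04 when aged replicate 2 was left out, 0.13 when aged replicate 1 was left out and -0.02 with a GC trend removed, and it was not called in any of these.

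Taken per library, the ratio of Kcnj8 to Abcc9 FPKM was 0.809 and 0.947 at 8 weeks and 0.469 and 0.408 at 12 months. The mean log2 ratio was -0.19 ± 0.16 (SD, n = 2) in the young and -1.19 ± 0.14 (SD, n = 2) in the aged libraries, a decrease of 2.00-fold. The aged ratios lay below the young ones, and the two-sided exact permutation p was 0.333, the smallest that 6 regroupings of 4 libraries allow. Leaving out each library in turn gave changes between -1.11 and -0.89.

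The other pair of subunits, Kcnj11 and Abcc8, encodes Kir6.2 and SUR1, and Kir6.2 is the usual pore of this channel in cardiomyocytes. Kcnj11 measured 16.8 and 17.3 FPKM in the young libraries, against 24.7 and 25.2 in the aged ones. It was 1.40-fold higher at 12 months (log2 fold change 0.49 ± 0.06 SE, edgeR adjusted p = 0.00338), opposite to Kcnj8. Abcc8 measured 5.90 and 5.28 FPKM in the young and 8.73 and 7.12 in the aged libraries. Both aged libraries lay above both young ones, and Abcc8 was 1.36-fold higher (log2 fold change 0.45 ± 0.13 SE, edgeR adjusted p = 0.0353). That call was lost without young replicate 1 (0.53, edgeR adjusted p = 0.0821), without young replicate 2 (0.36, edgeR adjusted p = 0.176) and without aged replicate 1 (0.26, edgeR adjusted p = 0.113). The ratio of Kcnj11 to Abcc8 was 2.85 and 3.28 at 8 weeks and 2.83 and 3.54 at 12 months, so its ages overlapped. Set against Abcc9, which cardiomyocytes also express, Kcnj11 stood at 0.839 and 0.839 at 8 weeks and at 1.21 and 1.06 at 12 months. The ratio of the 2 pore genes, Kcnj8 to Kcnj11, went from 0.964 and 1.13 to 0.387 and 0.384, 2.70-fold lower (two-sided exact permutation p = 0.333, again the smallest possible). At 8 weeks the levels of the pore genes overlapped, and at 12 months Kcnj11 exceeded Kcnj8 in both libraries.

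**Figure D3:**
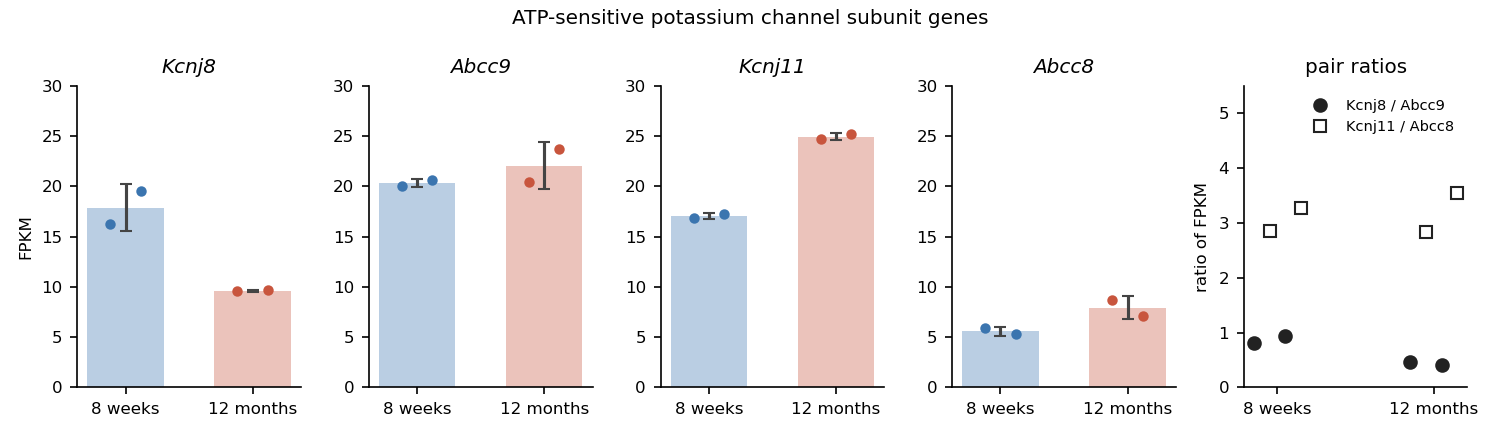
FPKM of the 4 ATP-sensitive potassium channel subunit genes by age, and, in the right panel, the ratios Kcnj8 to Abcc9 (filled circles) and Kcnj11 to Abcc8 (open squares) in each library. Bars are means of 2 libraries and error bars are SDs. Kcnj8 is lower and Kcnj11 higher at 12 months, and the Kcnj8 to Abcc9 ratio falls from 0.809 and 0.947 to 0.469 and 0.408.

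Kcnj8 and Abcc9 lie next to each other on chromosome 6 of GRCm38, at 142564837-142571614 and 142587862-142702315, both on the minus strand and 16247 bases apart. Kcnj11 and Abcc8 are likewise neighbours on chromosome 7, on the minus strand and 4285 bases apart. Of 11 table genes within 250 kb of Kcnj8, 6 were tested, including Abcc9. Among them Ldhb, the lactate dehydrogenase subunit B gene, was lower (log2 fold change -0.42, edgeR adjusted p = 0.0138), and Golt1b, a Golgi transport gene, was higher (0.55, edgeR adjusted p = 0.0492). The neighbouring genes thus did not move in a single direction. The 300-base windows around the annotated starts of the channel pair (RefSeq, GRCm38.p6, 250 bases before and 50 after the start) are shown because the genes are neighbours of which Kcnj8 was called and Abcc9 was not. They are written 5′ to 3′ on the gene's own strand, and capitals mark a GC box read on the opposite strand. The Kcnj8 window is chr6:142571565-142571864 and the Abcc9 window chr6:142702225-142702524, both minus strand.
Kcnj8: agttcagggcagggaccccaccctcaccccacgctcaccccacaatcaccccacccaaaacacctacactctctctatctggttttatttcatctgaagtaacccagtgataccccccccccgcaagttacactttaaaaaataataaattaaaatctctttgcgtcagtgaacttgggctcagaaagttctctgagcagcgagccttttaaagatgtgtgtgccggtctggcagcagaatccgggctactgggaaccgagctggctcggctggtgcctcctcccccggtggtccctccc
Abcc9: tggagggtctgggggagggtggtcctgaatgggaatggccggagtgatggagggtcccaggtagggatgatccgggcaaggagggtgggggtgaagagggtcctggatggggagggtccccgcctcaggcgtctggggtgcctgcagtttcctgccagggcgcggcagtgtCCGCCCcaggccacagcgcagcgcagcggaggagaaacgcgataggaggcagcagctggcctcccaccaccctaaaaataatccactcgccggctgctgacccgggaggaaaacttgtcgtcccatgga
The Kcnj8 window had 53.3% G and C and 9 CpG dinucleotides, and the Abcc9 window had 65.7% and 16, against medians of 52.7% and 7 over 32851 such windows. Of 9 motifs searched on both strands, the Kcnj8 window held none. The Abcc9 window held the GC box GGGCGG once, beginning 79 bases before the start, a motif found in 35.7% of all windows. A match is a description of these letters and not evidence of binding.

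The regulators of G protein signalling Rgs5 and Rgs4 were both lower. Rgs5 (ENSMUSG00000026678), which speeds up the switching off of Gq and Gi proteins and is among the most abundant transcripts of mural cells, measured 153 and 175 FPKM in the young libraries, against 96.7 and 103 in the aged ones. Its means were 164 ± 15.1 and 99.9 ± 4.57 FPKM (SD, n = 2 each), 1.71-fold lower (log2 fold change -0.77 ± 0.09 SE, edgeR adjusted p = 0.00231). The gap between the ages exceeded the spread within either. Rgs4 (ENSMUSG00000038530), a close relative with the same activity, measured 10.9 and 10.6 FPKM in the young and 6.41 and 7.02 in the aged libraries. It was 1.67-fold lower (log2 fold change -0.74 ± 0.09 SE, edgeR adjusted p = 0.00247), and its ages did not overlap. Rgs4 stood at 0.0714 and 0.0605 of the Rgs5 level in the young libraries, against 0.0663 and 0.0680 in the aged ones, so the ratio of these genes, unlike that of the channel pair, overlapped between ages.

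Rgs5 and Rgs4 lie on chromosome 1 at 169655501-169695813 and 169741477-169747642, 45663 bases apart and on opposite strands. Rgs4 was the only tested gene within 250 kb of Rgs5. Hsd17b7, a cholesterol synthesis gene within 250 kb of Rgs4, was higher (log2 fold change 1.01, edgeR adjusted p = 0.0424). Their start windows are shown because both genes were lower by almost the same factor. Capitals mark the matches named after the sequences, and the windows are chr1:169655251-169655550 on the plus strand for Rgs5 and chr1:169747593-169747892 on the minus strand for Rgs4.
Rgs5: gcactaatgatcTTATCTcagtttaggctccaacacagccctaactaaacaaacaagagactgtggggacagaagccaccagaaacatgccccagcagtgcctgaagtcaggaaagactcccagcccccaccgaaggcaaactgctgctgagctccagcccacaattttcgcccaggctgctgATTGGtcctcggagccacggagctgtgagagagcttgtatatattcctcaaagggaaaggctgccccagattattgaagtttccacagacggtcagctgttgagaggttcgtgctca
Rgs4: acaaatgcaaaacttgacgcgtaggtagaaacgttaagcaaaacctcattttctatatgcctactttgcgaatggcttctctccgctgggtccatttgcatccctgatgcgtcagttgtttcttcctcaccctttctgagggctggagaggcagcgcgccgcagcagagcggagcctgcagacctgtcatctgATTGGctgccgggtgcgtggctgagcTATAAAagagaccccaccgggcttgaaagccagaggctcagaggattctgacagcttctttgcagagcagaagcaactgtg
Both windows held the CCAAT box on the opposite strand, beginning 67 bases before the start in Rgs5 and 57 before it in Rgs4, and 37.4% of all windows held it. Rgs4 also held TATAAA, beginning 31 bases before the start, as did 13.6% of windows. Rgs5 held the GATA motif AGATAA on the opposite strand, 238 bases before the start, as did 11.2% of windows. Neither held the GC box, the RBPJ motif GTGGGAA (6.38% of windows), the E-box CACGTG (7.15%), the AP-1 motif TGANTCA (7.81%), the ETS motif CCGGAAG (8.86%) or a CArG box (1.63%). Windows were matched for 8 of the 10 markers. The GC box was in those of Abcc9, Cspg4, Notch3 and Mcam and not in those of Vtn, Kcnj8, Rgs5 and Rgs4, a division noticed after the values were seen and given as a description.

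Of 10 tested genes of the RGS family, Rgs5 and Rgs4 included, 3 were lower (Rgs5, Rgs4 and Rgs3) and 2 were higher (Rgs2 and Rgs6), with a median log2 fold change of -0.30. Rgs3 fell from 4.53 and 4.59 FPKM to 2.86 and 2.80 (log2 fold change -0.74 ± 0.08 SE, edgeR adjusted p = 0.00173). Rgs6, which acts on Gi signalling in the heart's pacemaker tissue, measured 1.38 and 1.24 FPKM at 8 weeks and 2.55 and 2.53 at 12 months (0.90 ± 0.11 SE, edgeR adjusted p = 0.00248). Rgs2, a regulator of Gq in vascular muscle, went from 5.79 and 5.84 to 7.11 and 8.23 FPKM (0.34 ± 0.10 SE, edgeR adjusted p = 0.0355). The Rgs2 call was lost without young replicate 1 (0.34, edgeR adjusted p = 0.155), without young replicate 2 (0.34, edgeR adjusted p = 0.137) and without aged replicate 2 (0.25, edgeR adjusted p = 0.123), and the count of higher genes was then 1. Of the R4 group, to which Rgs4 and Rgs5 belong, Rgs8 was not called (-0.35, edgeR adjusted p = 0.0617), and Rgs1, Rgs13, Rgs16 and Rgs18 were below the FPKM minimum.

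Vtn had the largest fold change of the set. Vtn (ENSMUSG00000017344, chromosome 11, 78499091-78502324) encodes vitronectin, an adhesive protein of matrix and plasma made mostly by the liver and, in the mouse brain, by pericytes. It measured 18.6 and 18.3 FPKM in the young and 8.08 and 6.75 in the aged libraries. The means were 18.5 ± 0.240 and 7.42 ± 0.940 FPKM (SD, n = 2 each), and the fitted aged level was 38.7% of the young one (log2 fold change -1.37 ± 0.12 SE, edgeR adjusted p = 0.00128). The higher aged library was far below both young ones. Of 13 liver plasma protein genes, 3 passed the FPKM minimum; 2 of those were higher and 0 lower at 12 months by edgeR, 0 lower at an unadjusted p below 0.05 and 0 by DESeq2. Without young replicate 2 the count of higher genes was 1, as Trf, the transferrin gene, lost its call (0.68, edgeR adjusted p = 0.0605). The summed level of the list was 22.1 and 18.9 FPKM in the young and 36.7 and 41.4 in the aged libraries, opposite to Vtn, and their part in the result was not tested.

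Of 10 tested receptors and partners of vitronectin, 4 were higher and 6 were not called, with a median log2 fold change of 0.44, and 0 were lower by edgeR, at an unadjusted p below 0.05 or by DESeq2. Itgav, Itgb1 and Itga8 were among those called. Itgav, the alpha subunit shared by the vitronectin-binding integrins, measured 1.70 and 1.86 FPKM at 8 weeks and 2.69 and 2.78 at 12 months (log2 fold change 0.56 ± 0.09 SE, edgeR adjusted p = 0.00556). Itgav kept its call when any library was left out. Only 1 gene of the list was called without young replicate 1 and only 1 without young replicate 2, and the calls of Itgb1 (edgeR adjusted p = 0.0858 and 0.0716) and Itga8 (edgeR adjusted p = 0.0651 and 0.0806) were among those lost.

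Higd1b was next in size of change. Higd1b (ENSMUSG00000020928, chromosome 11, 102835849-102838040) encodes a small mitochondrial membrane protein of the hypoxia-inducible domain family and marks pericytes of heart and lung in mice. It measured 8.15 and 8.21 FPKM in the young and 3.95 and 3.36 in the aged libraries, from 401 and 488 counts against 202 and 158. The fitted aged level was 43.1% of the young one (log2 fold change -1.22 ± 0.19 SE, edgeR adjusted p = 0.00528). Both aged libraries were below both young ones. Higd1b had the widest interval of the called markers, from -1.67 to -0.76, and the fewest counts.

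A list of hypoxia-inducible domain genes and related respiratory chain genes was described beside Higd1b. Its 5 tested genes, Higd1b included, held 4 called lower and 0 called higher by edgeR, at an unadjusted p below 0.05 or by DESeq2, with a median log2 fold change of -0.86. Cox4i2, the oxygen-sensitive isoform of a cytochrome c oxidase subunit, fell from 11.8 and 11.5 FPKM to 4.59 and 5.12 (log2 fold change -1.32 ± 0.15 SE, edgeR adjusted p = 0.00232). Ndufa4l2, a hypoxia-induced relative of a respiratory chain subunit, fell from 15.9 and 16.2 FPKM to 9.59 and 8.75 (-0.86 ± 0.12 SE, edgeR adjusted p = 0.00395). Higd2a, which is broadly expressed, was lower as well (-0.48 ± 0.10 SE, edgeR adjusted p = 0.0128), and this was not called without young replicate 1 (-0.38, edgeR adjusted p = 0.0836). Higd1a, a broadly expressed relative, was not called (-0.29, edgeR adjusted p = 0.0754). Cox4i2 and Ndufa4l2 also stand in the list of other pericyte-enriched genes, so these counts are not separate from that list.

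The growth factor receptor Pdgfrb (ENSMUSG00000024620, chromosome 18, 61045150-61085061), through which pericytes are recruited and kept on capillaries, measured 17.4 and 19.7 FPKM in the young and 12.8 and 11.7 in the aged libraries. The means were 18.5 ± 1.63 and 12.2 ± 0.773 FPKM (SD, n = 2 each), 1.58-fold lower (log2 fold change -0.66 ± 0.09 SE, edgeR adjusted p = 0.00414). Its ages did not overlap. Pdgfb, the endothelial ligand of this receptor, fell further, from 19.0 and 19.1 FPKM to 9.30 and 9.15 (-1.10 ± 0.07 SE, edgeR adjusted p = 0.0012). Ligand and receptor were thus both lower, and the ligand's replicates were closer to each other than the receptor's. Pdgfra, the related receptor of fibroblasts, was higher (0.42 ± 0.08 SE, edgeR adjusted p = 0.00882), though the call was lost without young replicate 1 (0.36, edgeR adjusted p = 0.0741).

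Of 11 tested genes of the PDGF list, Pdgfrb included, 4 were lower and 3 higher, with a median log2 fold change of 0.15. Plcg1, a phospholipase activated by the receptor, fell from 14.6 and 12.6 FPKM to 7.32 and 8.75 (-0.82 ± 0.11 SE, edgeR adjusted p = 0.0035). Ptpn11, the phosphatase SHP2, was higher, at 18.3 and 19.0 FPKM in the young and 40.3 and 35.4 in the aged libraries (0.97 ± 0.10 SE, edgeR adjusted p = 0.00171). Pik3r1, a regulatory subunit of phosphoinositide 3-kinase, was also higher (0.58 ± 0.09 SE, edgeR adjusted p = 0.00485). The ligand Pdgfd was lower (-0.42 ± 0.13 SE, edgeR adjusted p = 0.0466), a call lost without young replicate 1 (-0.54, edgeR adjusted p = 0.0557), young replicate 2 (-0.27, edgeR adjusted p = 0.217) or aged replicate 1 (-0.37, edgeR adjusted p = 0.0941). Pdgfa was not called (-0.40, edgeR adjusted p = 0.065), and Pdgfc was below the FPKM minimum.

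Notch3 (ENSMUSG00000038146, chromosome 17, 32120820-32166852), the Notch receptor of mural cells, measured 7.05 and 8.61 FPKM in the young and 5.74 and 5.93 in the aged libraries. It had the smallest change among the called markers, 1.40-fold lower (log2 fold change -0.48 ± 0.10 SE, edgeR adjusted p = 0.0155). The ages did not overlap, and the gap between them was smaller than the spread of the young libraries. The call rested on young replicate 2, without which the log2 fold change was -0.33 (edgeR adjusted p = 0.0841). With FPKM rescaled to equal sums it was -0.24 (limma adjusted p = 0.137) and with a GC trend removed -0.31 (edgeR adjusted p = 0.067). Notch3 shares 21024 bases with Gm17276 on the opposite strand, and whether the authors counted by strand was not given; Gm17276 measured 0.155 to 0.332 FPKM.

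Of 14 tested Notch receptors, ligands and targets, Notch3 included, 11 were lower and 1 was higher, with a median log2 fold change of -0.65. Dll4, the Notch ligand of arterial and capillary endothelium, measured 12.0 and 8.75 FPKM in the young and 3.58 and 3.36 in the aged libraries (log2 fold change -1.64 ± 0.16 SE, edgeR adjusted p = 0.0017). The ligand gene Jag2 (-0.83 ± 0.08 SE, edgeR adjusted p = 0.00141) and the endothelial receptor gene Notch4 (-0.84 ± 0.08 SE, edgeR adjusted p = 0.00143) fell by similar amounts. Notch1 fell from 6.24 and 5.79 FPKM to 3.97 and 4.08 (-0.64 ± 0.07 SE, edgeR adjusted p = 0.00224). Heyl, a Notch target of mural cells that was named after its values were seen, fell from 7.54 and 7.79 FPKM to 5.48 and 4.57 (-0.67 ± 0.12 SE, edgeR adjusted p = 0.00755). Notch2 was not called (-0.10, edgeR adjusted p = 0.339). Rbpj, the DNA-binding partner of the receptors, was the gene called higher (0.33, edgeR adjusted p = 0.0238), and this call was lost without young replicate 1 (0.31, edgeR adjusted p = 0.137), young replicate 2 (0.35, edgeR adjusted p = 0.107) or aged replicate 1 (0.28, edgeR adjusted p = 0.063). Several genes of the list, Dll4 and Notch4 among them, are expressed mainly by endothelium. Heyl also stands in the list of other pericyte-enriched genes.

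Cspg4 and Mcam, which encode the surface proteins NG2 and CD146, were not called. Cspg4 (ENSMUSG00000032911, chromosome 9, 56865033-56899870) measured 2.53 and 2.88 FPKM in the young and 2.63 and 1.91 in the aged libraries. One aged library lay between the young ones and the other below both. Its log2 fold change was -0.31 ± 0.17 (SE), with a 95% interval from -0.73 to 0.11 (edgeR adjusted p = 0.199). The value rested on the aged libraries: it was -0.59 without aged replicate 1 (edgeR adjusted p = 0.00772) and -0.08 without aged replicate 2 (edgeR adjusted p = 0.595). Mcam (ENSMUSG00000032135, chromosome 9, 44134469-44142727), an adhesion molecule of the vessel wall, measured 19.7 and 23.2 FPKM in the young and 19.7 and 18.7 in the aged libraries. Its log2 fold change was -0.22 ± 0.10 (SE), with a 95% interval from -0.45 to 0.02 (edgeR adjusted p = 0.13). It was not called when any library was left out, with values from -0.32 without young replicate 1 (edgeR adjusted p = 0.0898) to -0.10 without young replicate 2 (edgeR adjusted p = 0.549). The interval for Mcam did not include the fold change of any called marker, while the wider interval for Cspg4 included those of Pdgfrb and Notch3.

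Beyond the 10 markers, 38 other pericyte-enriched genes were listed, of which 36 were in the table and 29 were tested. Of these 11 were lower and 4 higher, with a median log2 fold change of -0.31. Cox4i2 and Ndufa4l2, described above, were among the lower genes. Colec11, a secreted lectin gene named after its values were seen, fell from 9.71 and 10.3 FPKM to 4.50 and 5.66 (-1.04 ± 0.14 SE, edgeR adjusted p = 0.00384). The genes called higher were Parm1, Ednra, Art3 and Anpep, and which cells carried these rises was not tested. Ednra, an endothelin receptor gene, rose from 5.07 and 5.57 FPKM to 11.0 and 10.4 (0.96 ± 0.09 SE, edgeR adjusted p = 0.00139). Parm1, which encodes a mucin-like membrane protein that cardiomyocytes also make, rose from 9.74 and 9.22 FPKM to 21.6 and 19.1 (1.04 ± 0.09 SE, edgeR adjusted p = 0.00131). The calls of Art3 (0.42, edgeR adjusted p = 0.0792) and Anpep (0.46, edgeR adjusted p = 0.0603) were lost without young replicate 2. The summed level of the list was 233 and 229 FPKM in the young and 246 and 242 in the aged libraries, so the sum did not follow the median. Art3 went from 50.7 and 45.3 to 68.9 and 72.6 FPKM, a larger rise than that of the sum, whose direction thus rested on this gene. Leaving out either young library lowered the count of lower genes to 7.

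Genes of smooth muscle, the other mural cell of the vessel wall, were more often higher than lower. Of 20 tested smooth muscle genes 9 were higher and 2 lower, with a median log2 fold change of 0.39 and a summed level of 823 and 820 FPKM in the young and 1185 and 1076 in the aged libraries. Leaving out young replicate 1 lowered the count of higher genes to 3 and leaving out young replicate 2 to 5, and that of lower genes was 1 without young replicate 1, without young replicate 2 or without aged replicate 2. Cnn1, the contractile protein calponin, rose from 1.11 and 0.921 FPKM to 4.95 and 3.41 (1.98 ± 0.24 SE, edgeR adjusted p = 0.00258). Synpo2, an actin-bundling protein gene, rose from 4.10 and 4.26 FPKM to 9.83 and 9.56 (1.15 ± 0.07 SE, edgeR adjusted p = 0.0012). Smtn, the smoothelin gene, fell from 52.7 and 52.1 FPKM to 32.1 and 34.3 (-0.72 ± 0.07 SE, edgeR adjusted p = 0.00178). Of the abundant contractile genes named after their values were seen, Acta2 measured 117 and 107 FPKM in the young and 122 and 153 in the aged libraries and was not called (0.24, edgeR adjusted p = 0.161, and called at 0.36 without aged replicate 1, edgeR adjusted p = 0.0138). Myh11 was not called either (0.31, edgeR adjusted p = 0.132, and called at 0.47 without aged replicate 2, edgeR adjusted p = 0.0195). Tagln, also named after its values were seen, was called higher. The log2 fold change of Tagln ran from 0.67 without aged replicate 1 to 1.11 without aged replicate 2. Its call was lost without young replicate 1 (0.80). Several of the smooth muscle genes, Casq2, Smtn and Synpo2 among them, are also transcribed in cardiomyocytes. Within the summed level of the list, Casq2 measured 179 and 172 FPKM in the young and 307 and 288 in the aged libraries. Des measured 303 and 307 FPKM in the young and 370 and 333 in the aged ones. The sum thus does not describe smooth muscle alone.

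Endothelial markers were lower almost throughout. Of 26 tested, 25 were lower and 1 was higher, with a median log2 fold change of -1.03, and their summed level was 711 and 702 FPKM in the young and 389 and 376 in the aged libraries. Cdh5, the endothelial cadherin, fell from 72.0 and 71.3 FPKM to 32.0 and 33.9 (-1.18 ± 0.07 SE, edgeR adjusted p = 0.0012). Egfl7, a secreted endothelial factor, fell from 53.8 and 51.3 FPKM to 16.9 and 17.1 (-1.68 ± 0.07 SE, edgeR adjusted p = 0.0012). Vwf was the gene called higher (0.56, edgeR adjusted p = 0.022), a call lost without young replicate 2 (0.39, edgeR adjusted p = 0.0896). The summed FPKM of the 9 markers other than Rgs5 was 17.0% and 18.7% of the endothelial sum at 8 weeks and 23.0% and 23.6% at 12 months. The share was higher in both aged libraries than in both young ones. Its numerator includes Abcc9 and Mcam, which were not called. Abcc9 measured 20.1 and 20.6 FPKM in the young and 20.4 and 23.8 in the aged libraries. Mcam measured 19.7 and 23.2 in the young and 19.7 and 18.7 in the aged ones. The share thus does not describe the called markers alone, and whether the endothelial decrease bears on the pericyte markers was not tested.

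Signals exchanged between pericytes and endothelium were mixed. Of 22 tested, 11 were lower and 3 higher, with a median log2 fold change of -0.42. Eng and Tek also stand in the endothelial list and Ednra in that of other pericyte-enriched genes. These counts are thus not separate from those lists. Tek, the endothelial angiopoietin receptor, fell from 20.5 and 20.8 FPKM to 10.8 and 9.66 (-1.07 ± 0.09 SE, edgeR adjusted p = 0.0012). Angpt1, its ligand made by mural and other stromal cells, rose from 2.56 and 2.69 FPKM to 5.60 and 6.14 (1.10 ± 0.09 SE, edgeR adjusted p = 0.00121). Receptor and ligand thus moved in opposite directions. Id1, a target of bone morphogenetic protein signals, fell from 71.6 and 73.3 FPKM to 37.6 and 38.8 (-0.98 ± 0.07 SE, edgeR adjusted p = 0.0012). Cdh2, the cadherin of pericyte contacts and of cardiomyocyte junctions, rose from 11.0 and 11.9 FPKM to 30.2 and 27.8 (1.28 ± 0.09 SE, edgeR adjusted p = 0.0012).

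The channel and transporter relatives of Kcnj8 and Abcc9 had no common direction. Of 12 tested inward rectifier and ABCC genes, both markers included, 5 were higher and 3 lower, with a median log2 fold change of 0.00. Kcnj3 and Kcnj5, the acetylcholine-activated channel subunits of atrial and nodal muscle, rose most. Kcnj3 went from 7.65 and 6.25 FPKM to 19.3 and 16.7 (1.31 ± 0.13 SE, edgeR adjusted p = 0.00165), and Kcnj5 from 6.23 and 4.95 to 21.5 and 14.9 (1.65 ± 0.21 SE, edgeR adjusted p = 0.00287). Abcc5, a nucleotide exporter, fell from 8.89 and 9.46 FPKM to 6.03 and 6.35 (-0.63 ± 0.07 SE, edgeR adjusted p = 0.00205). Abcc10 was called lower (-0.50, edgeR adjusted p = 0.0445) and lost the call without young replicate 1, young replicate 2 or aged replicate 1.

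Markers of other heart regions and cell types also differed between the ages. Atrial muscle genes were higher for 9 of 11 tested, and their summed level was 305 and 304 FPKM in the young and 4509 and 1763 in the aged libraries. Mesothelial genes were higher for 7 of 8 tested (10.2 and 11.6 against 43.2 and 38.7 FPKM) and fat cell genes for 9 of 11 (77.4 and 71.3 against 228 and 236 FPKM). No gene of these 3 lists was called lower by edgeR, was lower at an unadjusted p below 0.05 or was called lower by DESeq2. Of 15 cardiomyocyte genes 5 were higher and 6 lower, with sums of 19690 and 19494 FPKM in the young and 19113 and 18779 in the aged libraries, and 2 were higher without young replicate 1 or without young replicate 2. Of 21 fibroblast genes 3 were higher and 1 lower (910 and 844 against 997 and 1004 FPKM), with 1 higher without young replicate 1, 7 higher without aged replicate 2, 3 lower without aged replicate 1 and 0 lower in each of the other 3 fits that left out a library. Of 11 Schwann and glial genes 1 was higher and 0 were lower, with 1 lower at an unadjusted p below 0.05 and 0 by DESeq2 (71.7 and 70.7 against 88.7 and 88.6 FPKM). No gene of any of these lists was at 0 in all libraries. The part of these differences in the values of the pericyte markers, and in those of Kcnj11 and Abcc8, was not tested.

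**Figure D4:**
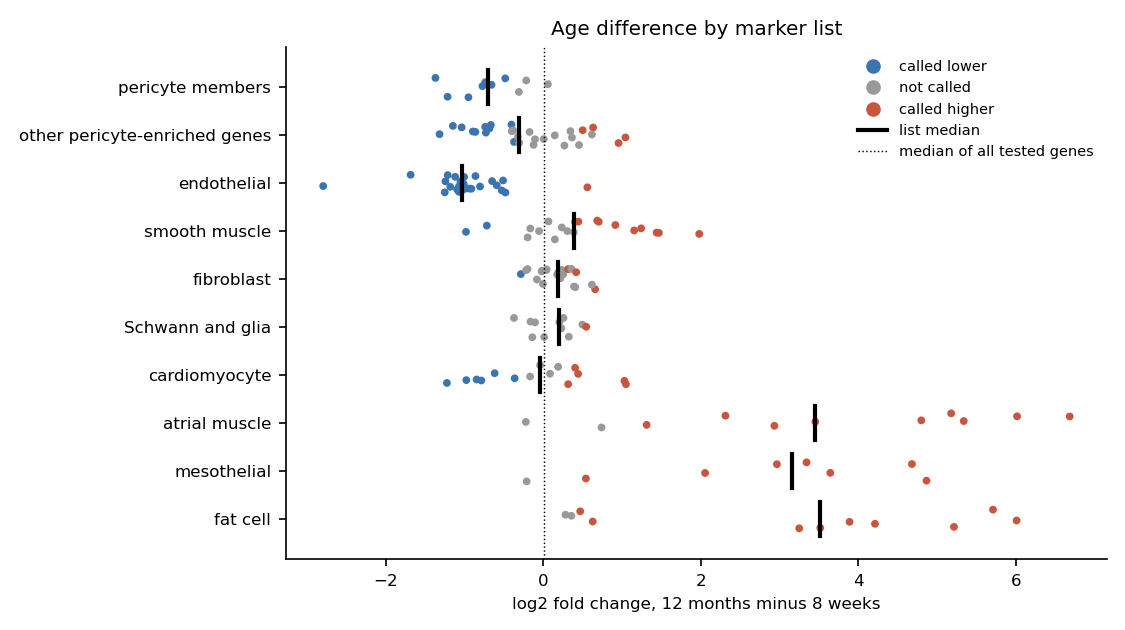
Log2 fold change at 12 months relative to 8 weeks for each tested gene of 10 marker lists. Points are genes, coloured by edgeR call, thick lines are list medians and the dotted line is the median of all tested genes. The pericyte markers have a median of -0.70 and the endothelial genes of -1.03, while the smooth muscle genes have a median of 0.39 and the medians of the atrial, mesothelial and fat cell genes are 3.45, 3.15 and 3.52.

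Genes whose 4 values lay closest to those of each channel subunit were found by the Euclidean distance of their log2 CPM, each centred over the libraries, among 10759 genes. With 4 libraries this distance mostly reflects the age difference, and it is given as a description. The nearest to Kcnj8 were Fam89a (distance 0.0116), Etl4 (0.0745) and Sh2d3c (0.0773), where the median gene lay at 1.0. Their log2 fold changes were -0.97, -0.90 and -0.98, and all 3 were called lower by edgeR. The nearest to Abcc9 were Isoc2a (0.0117), Stx17 (0.0121) and Gstm1 (0.0206), where the median gene lay at 0.40. None of these 3 was called, with log2 fold changes of 0.06, 0.06 and 0.07.

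Called neighbours within 250 kb of the other markers were counted as well. Around Vtn, Sdf2 and Aldoc were lower while Poldip2, 2610507B11Rik and Pigs were higher. Around Mcam, which was not called, Hinfp and C2cd2l were lower while Nlrx1 and Hyou1 were higher. Single neighbours were lower near Higd1b (Gjc1, a gap junction gene, log2 fold change -0.62, edgeR adjusted p = 0.00527), near Pdgfrb (Hmgxb3) and near Cspg4 (Man2c1), and Akap8 and Akap8l were lower near Notch3. Abcc9 overlaps 5330439B14Rik on the opposite strand over 11868 bases, a gene with at most 0.0355 FPKM, and Mcam overlaps Gm10687 on the opposite strand over 17 bases. The other 7 markers overlap no gene of the table.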

How the data were processed

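Libraries were strand-specific (dUTP), from poly(A) RNA, per the labels. The submitters' processing notes name HISAT2 2.2.1, StringTie 2.1.6, cutadapt 1.9, edgeR and DESeq2, and the build GRCm38; roles, settings, strand use in counting and the handling of multi-mapping fragments were not given. Per the file headers, each gene has an FPKM and an estimated count for every library. The estimated counts deposited by the authors were whole numbers and were tested as such. Age is stored in a label called batch, and no other batch is given.

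Genes with a mean of at least 1 FPKM were tested with edgeR 4.0.16 in R 4.3.3 (TMM scaling, quasi-likelihood test, two-sided, Benjamini-Hochberg). The fit was first run on simulated counts in which few genes were changed. That run does not show how the fit behaves under differences as broad as those between these ages. Alternatives used limma 3.58.1, DESeq2 1.42.0 and mgcv 1.9.3 (length and GC trends). Lists were described without a test. Markers and lists were chosen with earlier results of these data known. The genes named were drawn from the markers, the channel subunits, PDGF ligands and receptors, Notch receptors, the RGS R4 group, up to 4 genes of smallest p per list and those called against its majority, the 3 nearest patterns, and called neighbours within 250 kb. Acta2, Myh11, Tagln, Heyl, Colec11 and the overlapping genes were named after their values were seen. Coordinates are those of the deposited table.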

Additional observations from a re-analysis of the deposited data

How the results depend on the processing

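Across 15 alternatives (other scalings, DESeq2, limma on FPKM, other FPKM minimums, length or GC trends removed, each library left out), Vtn, Higd1b, Kcnj8, Rgs5, Rgs4, Pdgfrb and Kcnj11 were called in all 15, and the number of markers called lower was 6 to 8. Notch3 was not called with no FPKM minimum (-0.46), by limma on log2(FPKM + 1) (-0.36), with FPKM rescaled to one sum (-0.24) or with a GC trend removed (-0.31), and ranged from -0.62 to -0.33 when a library was left out. Abcc8 was not called with no FPKM minimum (0.47) and ranged from 0.26 to 0.60 when a library was left out. The Abcc9 log2 fold change was -0.022 with a GC trend removed and -0.035 to 0.13 when a library was left out; Cspg4 was -0.59 to -0.082. The median of all genes was 0.01 and 53.5% of calls were higher in the edgeR fit, 0.049 and 60.6% by limma on log2(FPKM + 1), and 0.16 and 77.6% by limma on FPKM rescaled to one sum; with the last, Rgs4 was -0.48, Pdgfrb -0.42, the marker median -0.45, and Notch2 (0.079) and Ttr (0.017), not called in either fit, changed sign. Other pericyte-enriched genes called lower were 7 with a mean FPKM of at least 5, with no minimum or with rescaled FPKM, and 7 to 10 when a library was left out. Smooth muscle genes called lower were 1 with minimums of 0.1, 5 or none or with a length or GC trend removed, and 1 to 2 when a library was left out; those called higher were 3 to 11. Endothelial genes called higher were 0 with no minimum and 0 to 1 when a library was left out. The causes were not tested. Where 1 library of an age was left out, the lone library was assumed to vary like the other age. The log2 change of the Kcnj8 to Abcc9 ratio was -1.0 on counts and -0.93 with a pseudocount of 1 FPKM. Of 1177 values for 80 other named genes, 1093 kept direction and call. No paired analysis was possible because the library numbers in the titles share fewer than 2 values between the ages. The standard errors of Cspg4 and Mcam, with 2 libraries an age, left 0 inside their 95% intervals; Higd1b, with the fewest counts, had the widest interval of the called markers.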
